A study of Rattus norvegicus with 24 samples.

Results

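The genes described here are 9 components of transforming growth factor beta (TGF-beta) signalling, chosen by name: the ligands Tgfb1, Tgfb2 and Tgfb3, the latency protein Ltbp1, the receptors Tgfbr1, Tgfbr2 and Tgfbr3, and the intracellular mediators Smad3 and Smad7. All 9 were on the array, through 11 of its 41012 probes (10813 probes carried one of 8945 gene symbols). Their levels and their response to dihydrotestosterone (DHT), an androgen that cannot be converted to estrogen, were measured in prostate, ovary, skin and forebrain of Sprague-Dawley rats aged 12 weeks. Males, the source of prostate, skin and forebrain, were castrated and 3 days later received one intraperitoneal dose of 10 mg/kg DHT or vehicle. Ovaries came from intact females given the same dose or vehicle, as the sample labels state, although the series design text speaks of castrated males throughout. All tissues were taken 16 h after dosing. The males of the vehicle groups were therefore castrates too, and the study had no intact males, so that a change after castration itself was not measured. Each of the 8 groups had 3 one-colour arrays, described in the design text as biological replicates; the label of forebrain vehicle array 3 reports a failed quality control, and without it there were 23 arrays.

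TGF-beta ligands are secreted in a latent complex with their own propeptide and a latent TGF-beta binding protein such as Ltbp1, which anchors the complex in the extracellular matrix. The active ligand binds Tgfbr2, which recruits and phosphorylates Tgfbr1, which in turn phosphorylates Smad2 and Smad3; Tgfbr3 (betaglycan) presents ligand, and Smad7 is a feedback inhibitor. In the rat prostate, TGF-beta ligand and receptor messages are known to increase after castration and to be lowered again by androgen, at a time when luminal cells die.

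Levels below are log2 processed signals relative to the 75th percentile of the same array, so that a level of 0 is a probe as bright as that percentile and 1 unit is a 2-fold difference. Levels of one gene are compared between arrays, never levels of different genes, since probes differ in brightness. Changes are DHT minus vehicle on this scale, with the standard error (SE) of limma, and "called" means an adjusted p under 0.05 over all genes tested in that tissue. On the 23 arrays, 54.6% to 97.0% of probes were well above background. The arrays of ovary vehicle 1 and 3 stood apart, at 96.5% and 97.0% and with a narrow spread of signals (interquartile range 3.79 and 3.21 log2 units, against 5.01 to 6.80 on the other arrays used). Prostate vehicle array 3 had 1531 outlier spots, against at most 273 on any other array used; these included the spots of Tgfbr2 and Tgfbr3, which have only 2 vehicle values in prostate. Vehicle and DHT arrays lay on different slides (3 slides each), so that slide and treatment cannot be told apart. Known androgen targets responded in prostate. Pbsn (probasin, a secretory androgen target) rose by 5.85 ± 0.31 (SE), Fkbp5 by 2.52 ± 0.21 and Odc1 by 1.04 ± 0.18, while Clu (clusterin, known to be high in the regressing prostate) differed by 0.79 ± 0.47 and was not called (adjusted p = 0.334).

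Of the 9 genes, 8 passed the filter on dim probes, the same 8 in every tissue. Smad3, the receptor-activated mediator, did not. Its probe was well above background on 2 ovary vehicle arrays (1 and 3, those of narrow signal range), 1 skin DHT array and 1 forebrain DHT array, and on no prostate array, and it was not tested.

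The prostate gave the only calls among these genes: 2 of the 8 tested genes fell with DHT, the ligand Tgfb3 and the receptor Tgfbr2, and none rose. Over all 23738 genes tested in prostate, 9.64% were called, 4.61% as lower and 5.03% as higher, so that 2 of 8 rests on too few genes to set the group apart. The median change of the 8 genes was -0.27, that of all genes 0.06. DHT and vehicle arrays did not overlap for 2 of the 8, against 35.8% of all genes.

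The start regions of the 2 called genes are shown because these genes carry the prostate result. They are the 250 bases upstream of the annotated gene start in RefSeq, assembly GRCr8, written 5′ to 3′ in the direction of the gene (both lie on the minus strand), with matches to any searched motif in capitals. The Tgfb3 region is chr6:111456947-111457196 and the Tgfbr2 region chr8:124761470-124761719.
Tgfb3: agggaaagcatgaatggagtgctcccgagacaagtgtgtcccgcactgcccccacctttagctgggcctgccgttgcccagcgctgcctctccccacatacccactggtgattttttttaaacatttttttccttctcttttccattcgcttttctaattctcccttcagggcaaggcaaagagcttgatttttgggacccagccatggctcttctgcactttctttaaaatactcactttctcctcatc
Tgfbr2: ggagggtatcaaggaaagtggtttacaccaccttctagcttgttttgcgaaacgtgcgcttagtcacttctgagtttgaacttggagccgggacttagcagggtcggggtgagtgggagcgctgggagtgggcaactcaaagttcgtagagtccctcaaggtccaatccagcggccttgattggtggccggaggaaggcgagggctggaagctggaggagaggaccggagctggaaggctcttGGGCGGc
The motifs searched on both strands were the androgen response hexamer AGAACA (present in 17.5% of 33469 such regions), the full androgen response element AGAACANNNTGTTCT (0.012%), the Smad box GTCTAGAC (0.173%), the cyclic AMP response element TGACGTCA (1.59%), the AP-1 site TGACTCA (4.05%), the GC box GGGCGG (30.5%) and TATAAA (12.9%). The Tgfb3 region held none of these letters, and the Tgfbr2 region held 1 GC box, starting at position -7. Of the 9 genes, only Tgfb1 had an AGAACA hexamer in this window, starting at position -112 from the gene start, and only Ltbp1 a cyclic AMP response element, at position -108. A GC box was present in 5 of the 9: 3 in Tgfbr1, 2 in Smad7 and 1 each in Tgfbr2, Tgfbr3 and Smad3. The matches describe letters, not bound sites. The Tgfb3 region was 48.8% G and C, that of Tgfbr2 58.0%.

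Among the ligands in prostate, Tgfb3 had levels of 2.56, 2.63 and 2.66 on the vehicle arrays and 2.05, 1.74 and 1.30 on the DHT arrays. Every DHT array lay below every vehicle array, and the vehicle arrays were close together (SD 0.05). The difference was -0.92 ± 0.22 (SE, adjusted p = 0.0473), a 1.89-fold lower level with a 95% interval of 1.32 to 2.71. Tgfb1, the most widely expressed isoform, stood at -0.95, -1.07 and -1.48 on vehicle and -1.55, -1.48 and -1.24 on DHT. The groups of Tgfb1 overlapped, and its difference of -0.26 ± 0.20 was not called (adjusted p = 0.438). Tgfb2 also overlapped, at -4.03, -3.62 and -4.30 on vehicle and -4.24, -3.98 and -4.55 on DHT, a difference of -0.28 ± 0.24. The 95% intervals were -0.73 to 0.21 for Tgfb1 and -0.85 to 0.30 for Tgfb2, so that a fall of up to 1.65-fold and 1.80-fold lay within them. Ltbp1 was measured at 2.67, 3.25 and 2.68 on vehicle and 3.02, 3.06 and 2.94 on DHT, with a difference of 0.15 ± 0.20 and overlapping groups.

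Among the receptors in prostate, Tgfbr2, the ligand-binding type II receptor, had levels of -2.00 and -2.11 on the 2 vehicle arrays that measured it and -2.78, -2.87 and -2.87 on DHT. The 3 DHT arrays lay together below both vehicle arrays. The difference was -0.78 ± 0.16 (adjusted p = 0.0431), 1.72-fold lower with a 95% interval of 1.30 to 2.28. On vehicle array 3 the outlier spot read 0.62, far above the other 2 arrays, and with it the difference was -1.69 (adjusted p = 0.198). Tgfbr1, the kinase that Tgfbr2 activates, overlapped between groups at -1.84, -1.76 and -2.05 on vehicle and -1.96, -1.58 and -1.90 on DHT, a difference of 0.07 ± 0.17. Its other 2 probes gave -0.41 and -0.16, so that the probes disagreed in sign. Tgfbr3 stood at -3.52 and -3.27 on vehicle and -3.04, -3.70 and -2.74 on DHT, with a difference of 0.24 ± 0.32; its outlier spot on vehicle array 3 read 1.41, and with it the difference was -1.38 (adjusted p = 0.532). Smad7, the inhibitory Smad, was at 0.15, 0.07 and -0.30 on vehicle and -0.18, -0.40 and -0.60 on DHT. Its groups overlapped and the difference of -0.37 ± 0.19 was not called (adjusted p = 0.273).

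Both prostate calls were close to the threshold. Tgfb3 was lower in 13 of 13 alternative settings and called in 4 (adjusted p from 0.0066 to 0.157), and Tgfbr2 was lower in 12 of 12 and called in 4 (0.0068 to 0.275). When each prostate array was left out in turn, Tgfb3 was called in 1 of 6 fits (without DHT array 1, adjusted p = 0.0420) and Tgfbr2 in 1 of 6 (without vehicle array 3, 0.0304), so that the count of called genes was 0 or 1 in place of 2.

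**Figure D1:**
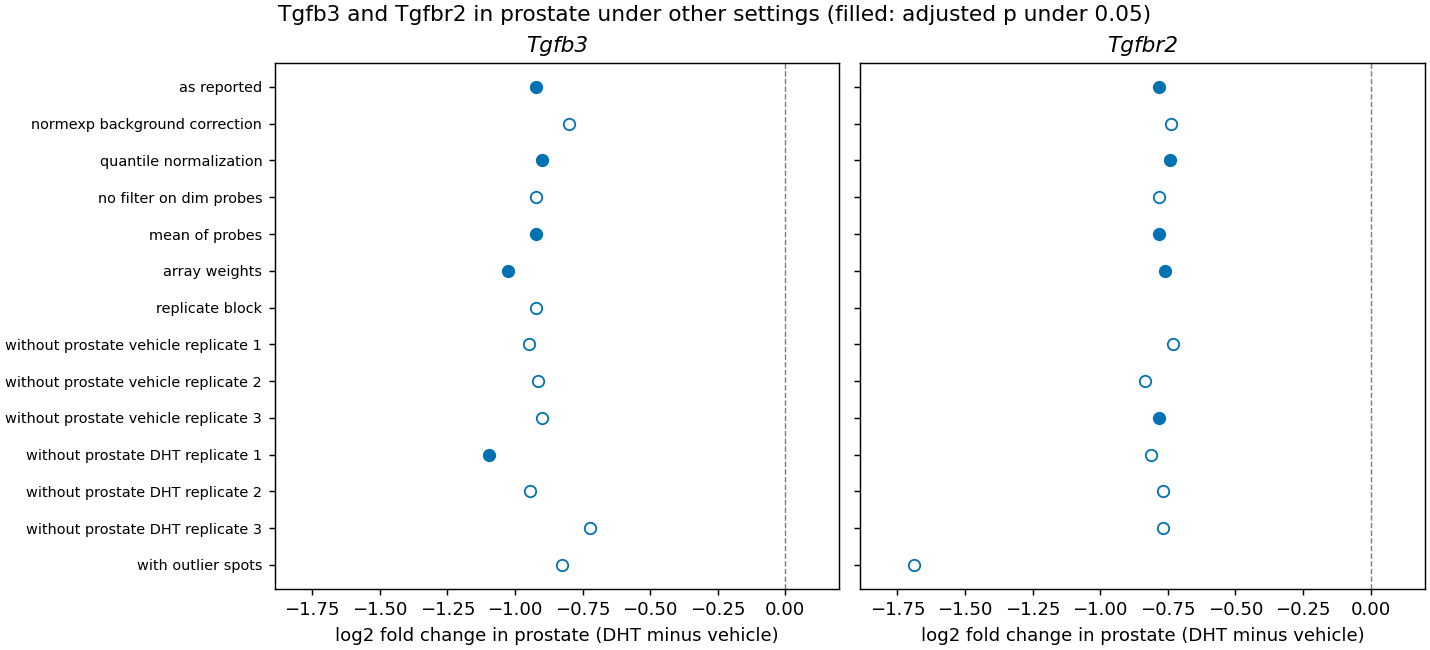
Log2 fold change (x axis, DHT minus vehicle) of Tgfb3 (left) and Tgfbr2 (right) in prostate, as reported and under each other setting (y axis); filled points have an adjusted p under 0.05 in limma. All points lie below 0, from -1.10 to -0.72 for Tgfb3 and from -1.69 to -0.73 for Tgfbr2, and most are open.

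Markers of other prostate cell types moved as well. Of the adipocyte list, 4 of the 5 tested genes rose with DHT (Adipoq by 1.43 ± 0.22), and the mean log2 level of the list ranged from 0.34 to 0.75 on vehicle and 1.54 to 1.99 on DHT arrays. None of the 4 fibroblast, 4 smooth muscle, 4 endothelial or 5 leukocyte and macrophage markers tested was called in either direction. The mean level of the fibroblast list was 3.33 to 4.02 on vehicle and 2.94 to 4.07 on DHT, and that of the smooth muscle list 3.10 to 3.93 and 3.51 to 4.55. For the endothelial list it was -2.87 to -1.56 and -1.66 to -1.08. The leukocyte and macrophage list was lower on every DHT array, at 4.515 to 4.545 on vehicle and 3.92 to 4.44 on DHT. The skeletal muscle list (5 tested, none called) was higher on every DHT array, at -2.63 to -2.36 on vehicle and -1.89 to -1.31 on DHT. Among 7 luminal markers (5 negative and 2 positive differences) Pbsn rose, while the keratins Krt8 (-0.99 ± 0.21) and Krt19 (-1.41 ± 0.22) fell. The keratin Krt18 differed by 0.48 ± 0.36, and neither it nor the remaining luminal markers were called. The mean level of the luminal list was 4.53 to 5.03 on vehicle and 4.77 to 5.17 on DHT. The basal keratin Krt14 fell by 1.18 on the log2 scale and the other 2 basal markers were not called. The mean level of the 3 basal markers was 3.99 to 4.17 on vehicle and 3.53 to 3.79 on DHT. The part of these shifts in the changes of Tgfb3 and Tgfbr2 was not tested, and fewer cells of a type cannot be told apart from less RNA per cell in whole tissue.

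Outside the prostate, none of the 8 genes was called in ovary, skin or forebrain, where limma called 0% of all 29400, 24122 and 26361 genes tested (0 genes in each). At an unadjusted p under 0.05 there were 3076, 1192 and 7234 genes in ovary, skin and forebrain, and 0, 1 and 2 of the 8 genes described here.

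In ovary, 2 of the 8 genes had DHT arrays that did not overlap the vehicle arrays, against 13.8% of all genes, and both were lower. Tgfb2 had levels of -1.68, -2.03 and -2.29 on vehicle and -2.60, -3.00 and -2.33 on DHT, a difference of -0.64 ± 0.29 (adjusted p = 0.482). The lowest vehicle array and the highest DHT array were only just apart. Tgfbr3, known as a co-receptor of inhibin as well, was at -2.26, -2.44 and -1.33 on vehicle and -3.11, -2.58 and -2.59 on DHT, a difference of -0.75 ± 0.37 (adjusted p = 0.492). It was -0.32 without the vehicle arrays of narrow signal range (1 and 3), -0.41 without array 3 alone and -0.28 with quantile normalization, which also took Tgfb2 to 0.023. The median of the 8 genes was -0.27, beside -0.23 for all genes, and with quantile normalization it was -0.01, beside 0.09. The other 6 genes overlapped, between -0.42 ± 0.35 for Tgfbr2 and 0.27 ± 0.40 for Ltbp1, and Tgfb3 differed by 0.09 ± 0.27.

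In skin, 7 of the 8 differences were positive, with a median of 0.27 beside 0.05 for all genes, and Smad7 alone was negative (-0.17 ± 0.42). The DHT arrays did not overlap the vehicle arrays for 2 of the 8, against 12.3% of all genes, both of them receptors and both higher. Tgfbr3 had levels of -1.31, -0.58 and -0.70 on vehicle and 0.49, 0.09 and -0.21 on DHT. All 3 DHT arrays lay above the vehicle arrays by a mean of 0.99 ± 0.32, with an unadjusted p of 0.0197 and an adjusted p of 0.752. Tgfbr2 had -0.94, -0.64 and -0.64 on vehicle and 0.07, 0.39 and -0.53 on DHT, a difference of 0.72 ± 0.32 (adjusted p = 0.752). Skin vehicle array 1 had far lower skeletal muscle markers than the other skin arrays: the mean level of 6 skeletal muscle genes ranged from -2.34 to 9.16 over the vehicle arrays and from 8.41 to 10.7 over the DHT arrays. Over fits that each left out 1 skin array, the difference ranged from 0.77 to 1.16 for Tgfbr3 and from 0.51 to 0.97 for Tgfbr2.

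In forebrain, DHT and vehicle arrays did not overlap for 4 of the 8 genes, against 47.3% of all genes (3 arrays against 2). Ltbp1 had levels of 0.05 and 0.35 on vehicle and -0.57, -0.66 and -0.47 on DHT. All DHT arrays were lower, by -0.76 ± 0.15, with an unadjusted p of 0.0034 and an adjusted p of 0.0764. Tgfb1 had -2.61 and -3.18 on vehicle and -3.46, -3.75 and -3.63 on DHT, a difference of -0.72 ± 0.21 (adjusted p = 0.115), which was -0.43 without vehicle array 1 and -1.004 without vehicle array 2. Tgfb2 was below vehicle on every DHT array (-0.28 ± 0.13) and Tgfb3 above it (0.14 ± 0.13), both by small amounts. The 3 receptors and Smad7 overlapped, between -0.44 ± 0.40 for Tgfbr3 and -0.05 ± 0.30 for Tgfbr2. In the same comparison, the mean level of 2 choroid plexus markers ranged from 1.83 to 4.17 on vehicle and from -3.30 to -2.57 on DHT. That of 5 fibroblast markers ranged from 0.02 to 0.16 and from -0.35 to -0.14. For 5 leukocyte and macrophage markers it was 0.67 to 0.86 and 0.12 to 0.36, and for 4 oligodendrocyte markers 5.72 to 5.93 and 4.64 to 5.18. Skeletal muscle markers were at -0.48 to -0.47 and -3.64 to -2.12. The 5 neuron markers went the other way, at 3.07 to 3.15 and 3.35 to 3.54. The part of these cells in the differences of Ltbp1 and Tgfb1 was not tested.

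**Figure D2:**
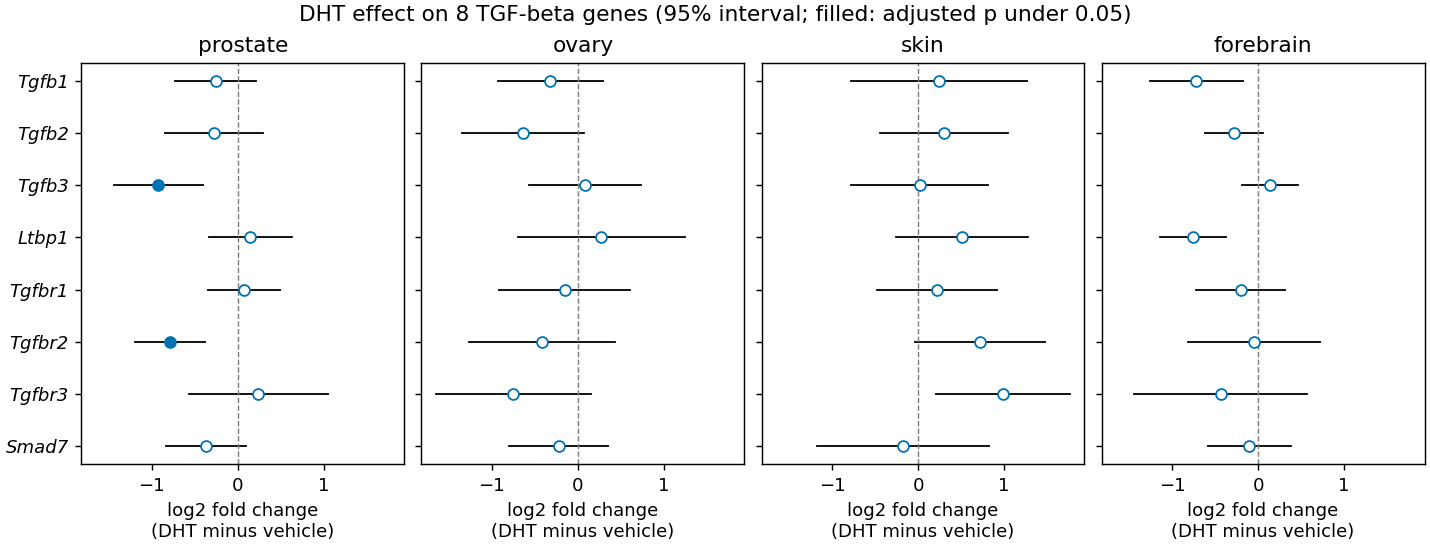
Log2 fold change (x axis, DHT minus vehicle) with its 95% interval for 8 TGF-beta genes (y axis) in each tissue; filled points have an adjusted p under 0.05 in limma. Only Tgfb3 and Tgfbr2 in prostate are filled, at -0.92 and -0.78.

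Differences between tissues in the DHT effect were tested in one fit over all 23 arrays. A moderated F test over the 4 tissues called 4.86% of 20751 genes and none of the 8 genes described here. The smallest adjusted p values were 0.103 for Tgfbr2, 0.109 for Tgfb3 and 0.110 for Tgfbr3. The prostate effect was then set against the mean of the effects in skin and forebrain, the other tissues of castrated males, a contrast that called 5.09% of all genes and again none of the 8. Tgfb3 differed by -0.99 ± 0.29 (adjusted p = 0.0522) and Tgfbr2 by -1.13 ± 0.37 (adjusted p = 0.0897). The other 6 differences lay between -0.30 ± 0.30 for Tgfb2 and 0.27 ± 0.33 for Ltbp1. The falls of Tgfb3 and Tgfbr2 were thus called in prostate without a called difference from the other tissues. For Tgfb3 that difference was called in 6 of 32 alternatives (adjusted p from 0.0013 to 0.158), and for Tgfbr2 in none.

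The vehicle levels of the 8 genes differed between tissues by up to 4.11 log2 units, while the widest difference with DHT was 0.99. Of 48 comparisons (8 genes, 6 pairs of tissues), 37 were called: 5 of 8 between prostate and ovary, 6 between prostate and skin, 6 between prostate and forebrain, 7 between ovary and skin, 6 between ovary and forebrain, and 7 between skin and forebrain. Of all genes, 43.4%, 62.9%, 59.4%, 55.8%, 53.5% and 61.4% were called in these pairs, so that differences between tissues were the rule on these arrays. By the probes fitted, the forebrain was lowest, or not separated from the lowest, for every gene but Tgfb2.

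Tgfb3 was highest in prostate, at 2.62 ± 0.05 (SD, n = 3), followed by ovary at 2.16 ± 0.32, skin at 0.20 ± 0.53 and forebrain at -0.74 ± 0.04 (n = 2). The difference between prostate and ovary (0.46) was not called (adjusted p = 0.115), although every prostate vehicle array lay above every ovary vehicle array. Prostate lay 5.35-fold above skin and 3.34 log2 units above forebrain, and skin 1.89-fold above forebrain (adjusted p = 0.0049). The DHT level of Tgfb3 in prostate, between 1.30 and 2.05, thus stayed above every skin and forebrain array. Tgfb2, by contrast, was lowest in prostate, at -3.98 ± 0.34, and ovary (-2.00 ± 0.31), forebrain (-2.09 ± 0.11) and skin (-2.17 ± 0.27) did not differ from each other. Prostate lay 3.52-fold to 3.95-fold below them, although with normexp background correction the difference from ovary shrank from -1.98 to -0.68, no longer called, and that from forebrain from -1.87 to -0.81. Tgfb1 was highest in ovary at 0.15 ± 0.25, 2.49-fold above prostate (-1.17 ± 0.28), which did not differ from skin (-1.50 ± 0.54, adjusted p = 0.300). Prostate minus ovary went from -1.32 to -1.07 without prostate vehicle array 3 and ovary vehicle arrays 1 and 3, which left 1 ovary vehicle array. Forebrain was lowest at -2.90 ± 0.40, 2.68-fold below skin. Ltbp1 followed Tgfb1 in this order, with 4.29 ± 0.74 in ovary, 2.86 ± 0.33 in prostate, 2.87 ± 0.13 in skin and 0.20 ± 0.21 in forebrain. Ovary was 17.2-fold above forebrain for Ltbp1, the widest distance among these genes, and prostate and skin were level (adjusted p = 0.995).

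The receptors were highest in skin, though for Tgfbr1 not by every probe. Tgfbr2 stood at -0.74 ± 0.17 in skin, -1.91 ± 0.54 in ovary, -2.05 ± 0.07 (n = 2) in prostate and -4.59 ± 0.22 in forebrain. Ovary and prostate did not differ (adjusted p = 0.766), and skin was 2.25-fold above ovary and 14.3-fold above forebrain. The distance of skin from forebrain shrank from 3.83 to 2.36 log2 units with normexp, still called, and ovary minus skin went from -1.17 to -1.78 without the narrow-range ovary arrays. Tgfbr3 was at -0.86 ± 0.39 in skin, -2.01 ± 0.59 in ovary, -3.28 ± 0.67 in forebrain and -3.39 ± 0.18 (n = 2) in prostate, and forebrain and prostate did not differ (adjusted p = 0.836). Skin was 5.63-fold above prostate, and prostate minus skin went from -2.49 to -1.46 with normexp. Prostate minus ovary (-1.35) was -0.28 with normexp and -0.58 with quantile normalization, called in neither. Ovary minus forebrain (1.24) was 0.70 with normexp, not called, and 0.89 with quantile normalization, still called. Tgfbr1 by its brightest probe ran from -0.92 ± 0.37 in skin through -1.88 ± 0.15 in prostate and -2.70 ± 0.50 in ovary to -3.46 ± 0.21 in forebrain, each step called. Of its other 2 probes, one read lowest in skin, at -5.36 ± 1.20, beside -4.70 ± 0.15 in forebrain. It was well above background on only 1 of the 3 skin vehicle arrays. The other had skin highest at -2.70 ± 0.61 (2 of 3 arrays above background), beside -2.95 ± 0.10 in prostate. The former had prostate (-3.12 ± 0.24) and ovary (-3.15 ± 0.92) level, and the latter had ovary at -3.43 ± 1.22. With quantile normalization the step from ovary to forebrain turned its sign (0.78 to -0.12) and that from prostate to ovary grew from 0.82 to 1.89. Prostate minus skin was then -0.70 and no longer called (adjusted p = 0.203 in limma). With normexp, ovary minus forebrain was 0.18 and not called (adjusted p = 0.551). Smad7 was at 1.96 ± 0.62 in skin, 3.25-fold above forebrain (0.27 ± 0.34), while forebrain, ovary (-0.02 ± 0.17) and prostate (-0.02 ± 0.24) did not differ from each other. Of the 37 called differences, 33 were also called with normexp, 34 with quantile normalization and 33 without the 3 vehicle arrays that stood apart; the one named was the only one to turn its sign.

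**Figure D3:**
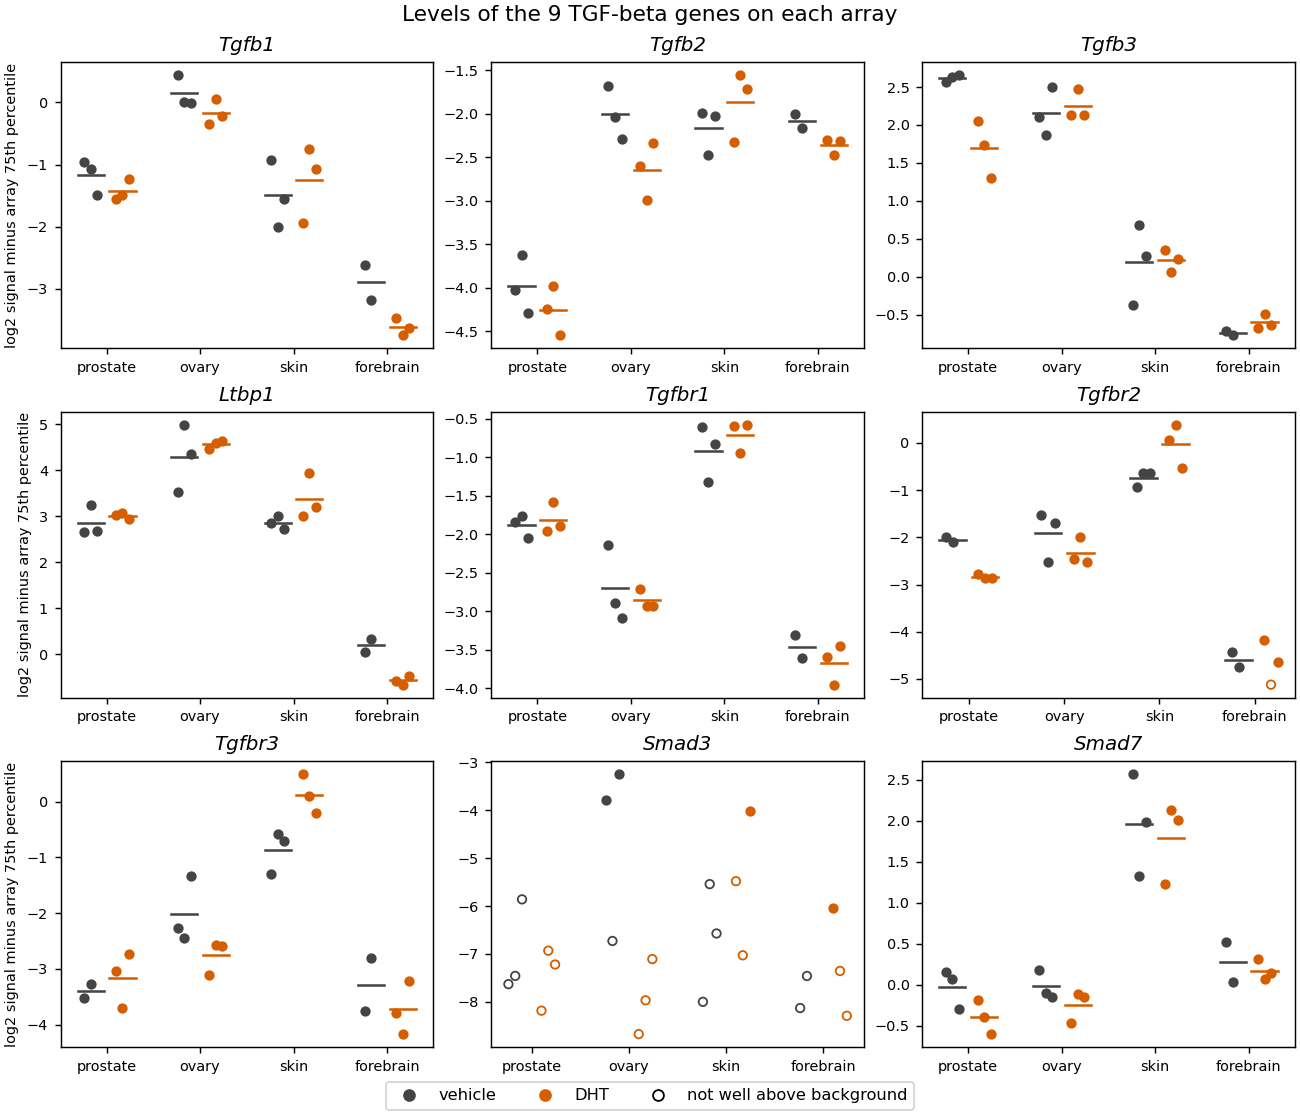
Log2 signal minus the array's 75th percentile (y axis, own scale per gene) of the 9 genes on each of the 23 arrays, by tissue (x axis) and treatment; bars are means of groups in which every array was well above background, and open points were not. In prostate, Tgfb3 (1.30 to 2.05 on DHT, 2.56 to 2.66 on vehicle) and Tgfbr2 separate by treatment; Smad3 is mostly open.

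Over the arrays, the levels of some of these genes ran together. Tgfb1 and Ltbp1 had a Pearson r of 0.94 (23 arrays), Tgfbr1 and Tgfbr2 one of 0.86 and Tgfbr2 and Tgfbr3 one of 0.86 (22 arrays), and Tgfb2 and Tgfb3 one of -0.54. The arrays share 4 tissues and 8 groups, so these values describe the tissue pattern. Among 5896 other genes with a symbol kept in all tissues, the most like Tgfb3 in pattern were C8h15orf39 (r = 0.96), Abcc3 (0.96) and Bri3 (0.96), and the most like Tgfbr2 were Stat6 (0.98), Fgl2 (0.96) and Clec2g (0.96). For Tgfb1 they were Lcn2 (0.96), Enah (0.96) and Prss23 (0.96), for Tgfb2 Gja1 (0.90), Ube2e3 (0.90) and Rdh11 (0.90), and for Ltbp1 Emp3 (0.97), Tnfrsf1a (0.97) and Ifitm2 (0.97). Tgfbr1 was most like Hbp1 (0.96), C1galt1 (0.95) and Lifr (0.95), Tgfbr3 most like Creb3l1 (0.96), Ogdh (0.94) and Znrf4 (0.93), and Smad7 most like S100a3 (0.94), Myo9a (0.94) and Zfp799 (0.94).

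The rest of the pathway was read from a list of 85 other genes, of which 58 were on the array and 52 were tested in prostate. DHT changed 12 of the 52 in prostate, 3 higher and 9 lower, beside 9.64% of all genes called, and the list's median change of 0.04 was close to that of all genes (0.06). None was called in ovary (57 tested), skin (52) or forebrain (52). Whether these changes differed between tissues was not tested. All 12 kept their direction in 13 of 13 alternatives, but the calls held unequally: 12 of 13 for Junb and Bambi, 11 for Furin, 8 for Id1, 7 for Cdkn2b, 6 for Bmpr1b and Gdf15, 5 for Tgif1, 4 for Bmp2, Klf10 and Acvr2b, and 2 for Ccn2. When single prostate arrays were left out, Junb and Bambi were called in 6 of 6 fits and Furin in 5, Id1 and Cdkn2b in 3, Bmpr1b, Gdf15 and Tgif1 in 2, and Bmp2, Klf10, Acvr2b and Ccn2 in 1. The adjusted p over the alternatives reached 0.166 for Acvr2b, 0.137 for Klf10, 0.136 for Bmp2 and 0.120 for Tgif1.

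Of 20 tested genes known as TGF-beta targets, 4 fell and 1 rose in prostate. Junb, an AP-1 subunit induced early by TGF-beta, had levels of 3.75, 3.49 and 3.54 on vehicle and 1.89, 2.03 and 1.85 on DHT, the clearest separation in the list. It fell by 1.67 on the log2 scale (SE 0.15, adjusted p = 0.0048). Cdkn2b, the cell cycle inhibitor p15 and a classic target of growth arrest by TGF-beta, was at 0.55, 0.64 and 0.83 on vehicle and -0.80, -0.30 and -0.39 on DHT (-1.17 ± 0.19, adjusted p = 0.0169). Klf10, the TGF-beta-inducible early gene, was at 4.48, 4.28 and 4.23 on vehicle and 3.25, 3.68 and 3.26 on DHT (-0.93 ± 0.18, adjusted p = 0.0283), and its second probe gave -0.91. Ccn2, connective tissue growth factor, was at 5.30, 5.18 and 4.64 on vehicle and 4.25, 3.86 and 3.35 on DHT (-1.22 ± 0.29). Its adjusted p of 0.0497 was just inside the threshold. Id1, an inhibitor of basic helix-loop-helix factors that responds chiefly to bone morphogenetic proteins (BMPs), rose from 0.03, 0.39 and -0.51 to 1.90, 1.47 and 1.38 (1.61 ± 0.27, adjusted p = 0.0197). Of the 15 targets not called, the collagen Col3a1, named here after its value was seen, differed by 0.93 ± 0.35 (adjusted p = 0.143). The median of the 20 was 0.40, with 12 positive and 8 negative, so that the called falls did not extend to the list.

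Among 8 antagonists and negative regulators, 2 fell and none rose. Bambi, a kinase-dead pseudoreceptor that blocks TGF-beta and BMP receptors, had 2.99, 3.26 and 3.72 on vehicle and 1.58, 1.94 and 1.39 on DHT. It fell by 1.69 on the log2 scale (SE 0.25, adjusted p = 0.0130), 3.22-fold. Tgif1, a corepressor of Smad2 and Smad3, was at 1.57, 1.33 and 1.28 on vehicle and -0.35, 0.35 and 0.41 on DHT (-1.25 ± 0.24, adjusted p = 0.0284). The groups did not overlap for either gene, beside 35.8% of all genes in prostate, and both genes were named for being called on these arrays.

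Of 7 other ligands of the superfamily, Bmp2 and Gdf15 fell. Bmp2 went from 0.62, 0.87 and -0.18 to -0.61, -0.99 and -1.17 (-1.36 ± 0.31, adjusted p = 0.0441), and its second probe also gave -1.36. Gdf15, a stress-induced ligand, went from -0.06, 0.15 and -0.01 to -0.96, -0.75 and -0.99 (-0.93 ± 0.15, adjusted p = 0.0175). Of 9 other receptors, the type I BMP receptor Bmpr1b rose from -2.45, -2.51 and -2.17 to -1.44, -1.02 and -1.07 (1.20 ± 0.19, adjusted p = 0.0153). The activin type II receptor Acvr2b fell from -1.57, -1.46 and -1.43 to -1.98, -2.33 and -2.26 (-0.70 ± 0.16, adjusted p = 0.0425). Of 4 latency and activation genes, Furin, a protease that cleaves TGF-beta precursors, rose from 1.81, 1.72 and 2.05 to 2.95, 3.25 and 3.25 (1.29 ± 0.17, adjusted p = 0.00999). None of the 4 other Smads tested (Smad1, Smad2, Smad4 and Smad5) was called, with differences from -0.28 for Smad2 to 0.20 for Smad1. In the other tissues, where tested, the same 12 genes had adjusted p values of at least 0.107 (Gdf15 in forebrain, -2.53 ± 0.72).

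**Figure D4:**
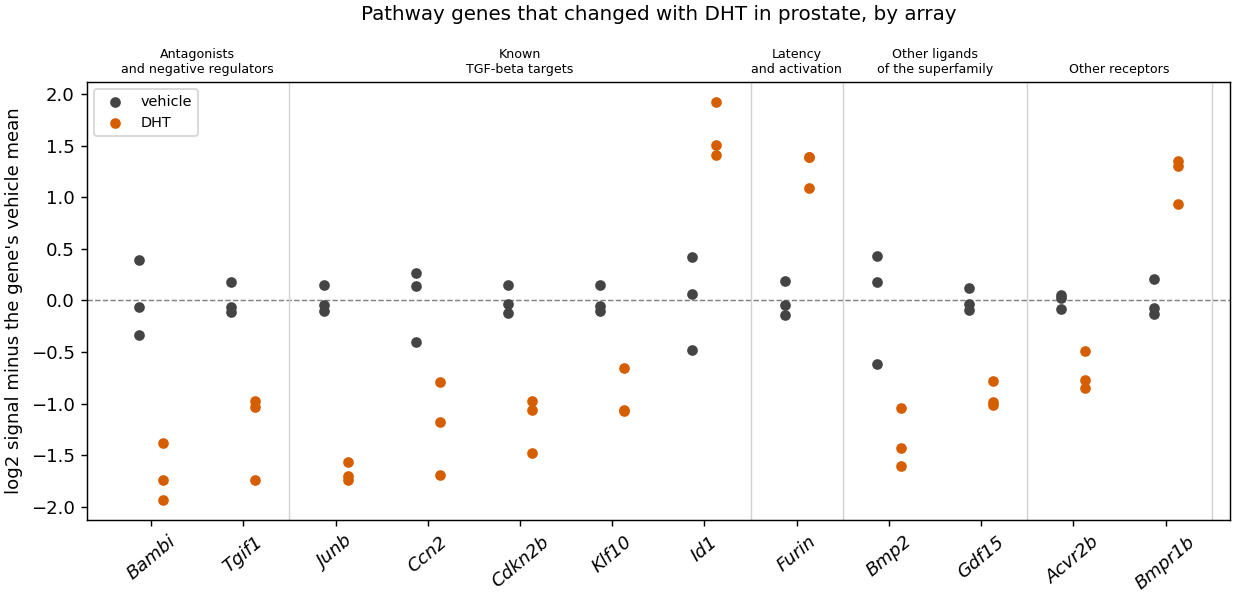
Log2 signal of each prostate array minus the gene's vehicle mean (y axis) for the 12 other pathway genes (x axis, by list) that changed with DHT; points are 3 vehicle and 3 DHT arrays. Id1, Furin and Bmpr1b lie above their vehicle arrays and the other 9 below, and the groups do not overlap for any of them. The 12 genes were chosen for being called on these same arrays, so that their separation is no further evidence. Of all genes tested in prostate, the groups did not overlap for 35.8%.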

How the data were processed

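Total RNA was amplified, labelled with Cy3 and hybridised to one-colour Agilent rat arrays, per the labels' protocols. The deposited intensity of each spot was written by Feature Extraction of Agilent, version 10.5.1.1 in the file headers and 10.1 in the submitters' processing notes, which also name limma. The authors' processed signal had its background subtracted by the scanner software. Accessions were matched without version to RefSeq symbols of GRCr8, and 30199 probes had no symbol. Log2 processed signals were scaled to the 75th percentile of each array, outlier spots were left out, and probes well above background on at least 3 arrays fitted were kept, 1 per gene (the brightest). Fits were made per tissue with limma 3.58.1 under R 4.3.3 (lmFit, eBayes, Benjamini-Hochberg, threshold 0.05), and the fit over all tissues took slide as a random block (correlation 0.103, from 2000 genes). Normexp (offset 50) used median spot signals. Only the lmFit and eBayes step was tried on simulated data, in the prostate design. The simulation did not cover scaling, the choice of probes or the fit over all tissues. The number of arrays limits the precision. The genes named besides the 9 were every called pathway gene in prostate, the 3 most correlated genes per member, and 4 control genes; the cell type markers, the uncalled Smads and Col3a1 were named outside this rule, after their values were seen. The genes, lists and tests were chosen with earlier results of these data known. The labels number the DHT animals on from the vehicle animals, while the numbers in the array titles restart in each group. Arrays of a tissue with the same title number did not deviate together (correlations from -0.43 to 0.01). Other settings tried were normexp, quantile normalization, no filter, probe means, array weights, blocks and leaving out arrays.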

Additional observations from a re-analysis of the deposited data

Results flagged for a closer look

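For 3 of the 8 genes tested, the DHT arrays were all above the vehicle arrays in one tissue and all below them in another. Within single tissues, the groups did not overlap for 35.8% of all genes in prostate, 13.8% in ovary, 12.3% in skin and 47.3% in forebrain. The share of all genes with opposite sides in a pair of tissues was not counted, so that these 3 genes do not set the group apart. Tgfb3 was lower in prostate (-0.92) and higher in forebrain (0.14), and the F test of a difference between the 4 tissues gave F = 4.64 with an adjusted p of 0.109. Tgfbr2 was lower in prostate (-0.78) and higher in skin (0.72), with F = 4.92 and an adjusted p of 0.103. Tgfbr3 was lower in ovary (-0.75) and higher in skin (0.99), with F = 4.70 and an adjusted p of 0.110; its ovary value was -0.32 without the narrow-range vehicle arrays 1 and 3 and -0.28 with quantile normalization. The unadjusted p values were 0.0140, 0.0120 and 0.0142, and none of the 3 differences passed after Benjamini-Hochberg adjustment over 20751 genes in limma.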

How the results depend on the processing

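The 2 calls among these genes in prostate became 0 with normexp, without the filter on dim probes, with the replicate number as a block and with outlier spots kept (a setting added after seeing the data). Over all genes, the 2288 prostate calls became 640 with normexp, 619 with no filter, 6850 with array weights and 44 with the block, and 574 to 2746 when single arrays were left out (0 to 1 among the genes described). The replicate block left 0 of these genes called in the other tissues too, and Tgfbr2 could not be fitted with it because of its missing spot. All ovary calls went from 0 to 16 with array weights and from 0 to 7578 over single arrays left out (7578 without vehicle array 2), forebrain calls to 762 with normexp and 0 to 49 over single arrays left out. The F test called 3 of the genes described with array weights and 0 to 3 over arrays left out, and the contrast of prostate with skin and forebrain 1 and 0 to 1. The 37 level differences stayed within 36 to 37 when single arrays were left out.

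No change that was called turned its sign; 32 values of uncalled changes did. In prostate, Tgfbr1 went to -0.014 (normexp), -0.17 (probe means) and -0.045 to 0.15 (arrays left out), Tgfbr3 to -0.31 (normexp) and -1.38 (outlier spots), and Ltbp1 to -0.15 (array weights). In ovary, quantile normalization gave Tgfb2 0.023, Tgfb3 -0.011 and Tgfbr1 0.93, array weights gave Ltbp1 -0.28, and leaving out vehicle arrays 1 and 3 gave Ltbp1 -0.43, Tgfbr1 0.035 and Tgfbr2 0.20. With single ovary arrays left out, Ltbp1 ranged from -0.11 to 0.62, Tgfbr1 from -0.34 to 0.13 and Tgfb3 from -0.060 to 0.26. In skin, Tgfb3 was -0.037 with normexp and -0.16 with array weights, and Smad7 0.16 with array weights, with ranges over arrays left out of -0.26 to 0.26 for Tgfb3, -0.49 to 0.13 for Smad7 and -0.012 to 0.58 for Tgfb1. In forebrain, Smad7 was 0.17 with vehicle array 3, and arrays left out gave -0.28 to 0.19 for Tgfbr2, -0.35 to 0.14 for Smad7 and -0.91 to 0.035 for Tgfbr3. The cause of these shifts was not tested. Scaling moved the median change of all genes by over 0.1 in prostate (0.06 to -0.14, normexp), ovary (-0.23 to 0.09, quantile) and forebrain (-0.02 to -0.19, normexp).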
